A study of Mus musculus with 6 samples.

Results

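Aminoacyl-tRNA synthetases are the enzymes that join each amino acid to its transfer RNA. The set examined here held 36 listed genes, 20 for enzymes of the cytosol and 16 for enzymes of mitochondria. Members were chosen by gene symbol, and names ending in 2 were taken as mitochondrial. A member was measured when a feature of the array carried its symbol alone, and the brightest feature by mean signal over the 6 arrays stood for the gene. By this rule 34 members were measured among 19818 genes, 18 of them cytosolic and 16 mitochondrial. Aars, for the alanine enzyme, shares its feature with Exosc6, and no feature carried the symbol of Dars, for the aspartate enzyme, so that both were left out of the counts. Iars was the only measured member with more than 1 feature, and its brighter one was used. The mean level is the measured value that this rule used, and levels are not compared between genes.

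The cells were mature B cells from mouse spleen, cultured with mitogen, infected with retrovirus, kept for 36 hours with mitogen and 24 hours without it, and sorted for green fluorescent protein. Cells of the first group carried MYD88 with the L265P substitution (MYD88_L265P), those of the second an IKK construct with the K171E substitution, its subunit not named (IKK_K171E), and those of the third the empty GFP vector (EV). All 3 groups therefore share activation, infection and the marker, and each had 2 arrays of pooled sorted cells, described as biological replicates. MYD88 is the adaptor of Toll-like and interleukin-1 receptors, and IKK is the kinase that releases NF-kB from its inhibitors. Myd88 read 12.25 and 12.31 in MYD88_L265P, 9.43 and 9.14 in IKK_K171E and 9.30 and 9.35 in EV (log2 signal, replicates 1 and 2). Ikbkb, for IKK beta, read 9.69 and 9.68 in MYD88_L265P, 11.35 and 10.68 in IKK_K171E and 9.98 and 10.22 in EV. The B cell genes Ms4a1, Cd79b and Pax5 were well above the array medians of 8.03 to 8.13 on every array. In MYD88_L265P relative to EV, however, Cd79b fell by 0.67 (limma adjusted p = 0.00789). The B cell genes Cd22, Cr2 and Fcer2a fell by 0.78, 1.31 and 1.81 (limma adjusted p = 0.00761, 0.00824 and 0.0283). Fcer2a read 9.01 and 8.57 in MYD88_L265P and 9.89 and 11.32 in EV. Of all features 7.33% fell. Cd22 also fell in IKK_K171E over EV (-0.64, limma adjusted p = 0.0416), where 0.413% of all features fell.

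Each amino acid needs its own synthetase, and the cytosolic and mitochondrial enzymes are in most cases products of separate nuclear genes. The cytosolic enzymes feed the ribosomes that make most cell protein, and the mitochondrial ones serve the small set of respiratory chain subunits made inside the organelle. Kars and Gars each encode the enzyme of both compartments, and Eprs encodes 1 protein that charges both glutamate and proline transfer RNA. Several cytosolic enzymes sit with scaffold proteins in the multisynthetase complex. In mammalian cells many cytosolic synthetase genes are targets of ATF4, the transcription factor of the integrated stress response, which answers amino acid shortage and stress of the endoplasmic reticulum. Cells that turn to antibody secretion enlarge their capacity to make protein.

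MYD88_L265P was first set against the empty vector. Most cytosolic synthetase genes were higher in MYD88_L265P, led by those for threonine and histidine, and most mitochondrial ones differed little. Of 18 cytosolic genes, 10 rose and 0 fell (limma, Benjamini-Hochberg over 21542 features, adjusted p below 0.05). Of all features 16.6% passed, 9.32% higher and 7.33% lower. At an unadjusted p below 0.05, 13 cytosolic genes were higher and 0 lower, and 5 mitochondrial genes were higher and 2 lower (38.7% of all features in either direction). Of 16 mitochondrial genes, 2 rose and 0 fell. The median log2 fold change was 0.57 over the cytosolic genes and 0.0040 over the mitochondrial genes, beside -0.11 over all features tested. With every array shifted to a common median the features that passed were 2584 higher and 753 lower, against 2007 higher and 1579 lower as deposited, and the cytosolic median was 0.65 with 10 genes higher. Both MYD88_L265P arrays lay above both EV arrays for 13 cytosolic and 7 mitochondrial genes (23.2% of all features), and below them for 2 and 6 (47.9%).

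**Figure D1:**
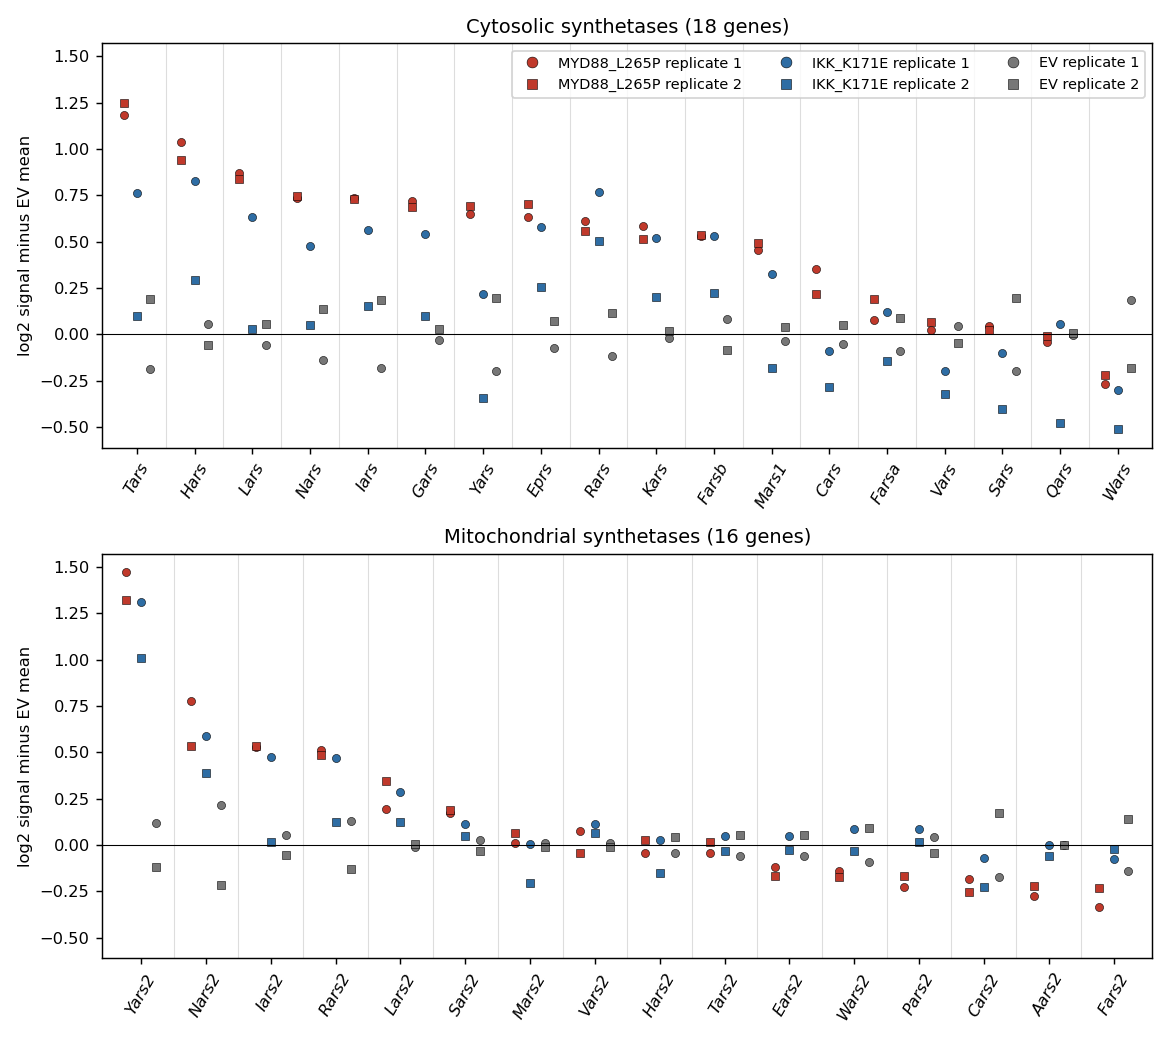
Log2 signal of each measured synthetase gene on each of the 6 arrays, minus the mean of the EV arrays of that gene; genes run from the largest to the smallest change in MYD88_L265P over EV, and circles and squares are replicates 1 and 2. MYD88_L265P replicates lie close together and above EV for 13 of 18 cytosolic genes, and IKK_K171E replicate 1 lies above replicate 2 for all 18.

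Tars, for the threonine enzyme, read 11.05 and 11.12 in MYD88_L265P, 10.63 and 9.97 in IKK_K171E and 9.68 and 10.06 in EV. The MYD88_L265P arrays were the highest, and the IKK_K171E arrays lay on either side of the upper EV value. Its log2 fold change in MYD88_L265P over EV was 1.22 (SE 0.22, adjusted p = 0.0154), or 2.32-fold. Tarsl2, a further gene for a threonyl-tRNA synthetase of the cytosol and not a member, rose by 0.89 (SE 0.18, adjusted p = 0.0209).

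Hars, for the histidine enzyme, read 10.48 and 10.38 in MYD88_L265P, 10.27 and 9.73 in IKK_K171E and 9.50 and 9.39 in EV. The groups did not overlap between either construct and EV. The gene rose by 0.99 in MYD88_L265P over EV (SE 0.17, adjusted p = 0.0134). Lars, for leucine, read 11.90 and 11.86 in MYD88_L265P, 11.66 and 11.05 in IKK_K171E and 10.97 and 11.08 in EV, and rose by 0.86 (SE 0.18, adjusted p = 0.0244). In Lars, IKK_K171E replicate 2 lay within the EV values and replicate 1 near MYD88_L265P.

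Nars, for asparagine, read 12.33 and 12.34 in MYD88_L265P, 12.07 and 11.64 in IKK_K171E and 11.46 and 11.73 in EV, and rose by 0.74 in MYD88_L265P over EV (SE 0.16). Iars, for isoleucine, read 12.09 and 12.08 in MYD88_L265P, 11.91 and 11.50 in IKK_K171E and 11.17 and 11.54 in EV, and rose by 0.73 (SE 0.17). Gars, for glycine, read 12.18 and 12.14 in MYD88_L265P, 12.00 and 11.55 in IKK_K171E and 11.43 and 11.48 in EV, and rose by 0.70 (SE 0.14). In these 3 genes both MYD88_L265P arrays lay above the other 4.

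Eprs, for glutamate and proline, read 11.77 and 11.84 in MYD88_L265P, 11.72 and 11.40 in IKK_K171E and 11.07 and 11.22 in EV, and rose by 0.67 (SE 0.13). Rars, for arginine, read 11.46 and 11.40 in MYD88_L265P, 11.61 and 11.35 in IKK_K171E and 10.73 and 10.96 in EV. Rars stood as high with IKK_K171E as with MYD88_L265P, and it rose by 0.58 in MYD88_L265P over EV (SE 0.12). Kars, for lysine, rose by 0.55 and Farsb, for the beta subunit of the phenylalanine enzyme, by 0.53 (SE 0.12 for both). Over the 10 cytosolic genes that rose, adjusted p ran from 0.0134 to 0.0308 and SE from 0.12 to 0.22.

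The other 8 cytosolic genes did not pass. Yars, for tyrosine, stood at 0.67 in MYD88_L265P over EV on the log2 scale (95% interval 0.20 to 1.14, adjusted p = 0.0590), Mars1, for methionine, 0.47 (0.10 to 0.85) and Cars, for cysteine, 0.28 (0.035 to 0.54), each with both MYD88_L265P arrays above both EV arrays. Farsa, for the alpha subunit of the phenylalanine enzyme, had 0.13 (-0.15 to 0.42), where its partner Farsb passed, and the difference between the subunits was not tested. Vars, for valine, had 0.044 (-0.17 to 0.26), Sars, for serine, 0.037 (-0.33 to 0.40) and Qars, for glutamine, -0.025 (-0.41 to 0.36). Wars, for tryptophan, whose gene is also known as an interferon target, had the lowest value of the set, -0.24 (-0.57 to 0.085). It read 9.60 and 9.65 in MYD88_L265P, 9.56 and 9.35 in IKK_K171E and 10.05 and 9.68 in EV, with both EV arrays above the other 4.

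Synthetases fall into class I and class II by the fold of their catalytic core. Of 8 class II cytosolic genes, 6 rose in MYD88_L265P over EV (median log2 fold change 0.63, with 9.32% of all features higher), and Farsa and Sars did not pass. Of 9 class I genes, 3 rose (median 0.47), and Eprs, which has a domain of each class, rose as well. Of 7 measured genes for enzymes of the multisynthetase complex, 5 rose (Eprs, Iars, Kars, Lars and Rars), and Mars1 and Qars did not pass. Of 11 cytosolic genes for enzymes outside the complex, 5 rose. These groupings were made after the values were seen, and the differences between them were not tested.

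The 3 scaffold genes of the complex did not move together. Eef1e1, for the protein AIMP3, read 10.60 and 10.53 in MYD88_L265P, 10.49 and 9.72 in IKK_K171E and 9.53 and 8.90 in EV, and rose by 1.34 in MYD88_L265P over EV (SE 0.27, adjusted p = 0.0214). Aimp2 read 10.16 and 9.91 in MYD88_L265P, 10.26 and 9.59 in IKK_K171E and 9.15 and 9.19 in EV, and rose by 0.87 (SE 0.21, adjusted p = 0.0328). Aimp1 read 10.32 and 10.33 in MYD88_L265P, 10.57 and 10.35 in IKK_K171E and 10.63 and 10.77 in EV, a log2 fold change of -0.38 (SE 0.11, adjusted p = 0.0547) that did not pass. In Aimp1 both EV arrays were above the other 4.

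Among the mitochondrial enzymes, Yars2, for tyrosine, had the largest change of all 34 members. It read 10.67 and 10.52 in MYD88_L265P, 10.51 and 10.21 in IKK_K171E and 9.31 and 9.08 in EV, and all 4 arrays with a construct lay above both EV arrays. Yars2 rose by 1.40 in MYD88_L265P over EV (SE 0.14, adjusted p = 0.00425), or 2.63-fold. Nars2, for asparagine, read 9.42 and 9.17 in MYD88_L265P, 9.23 and 9.02 in IKK_K171E and 8.85 and 8.42 in EV, and rose by 0.66 (SE 0.16, adjusted p = 0.0375). The EV replicates of Nars2 differed by more than those of the other groups.

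Iars2 and Rars2, for isoleucine and arginine, lay just outside the threshold in MYD88_L265P over EV. Iars2 read 10.41 and 10.41 in MYD88_L265P, 10.35 and 9.89 in IKK_K171E and 9.93 and 9.82 in EV (log2 fold change 0.53, SE 0.15, adjusted p = 0.0505). Rars2 read 10.29 and 10.26 in MYD88_L265P, 10.24 and 9.90 in IKK_K171E and 9.90 and 9.64 in EV (0.50, SE 0.14, adjusted p = 0.0514). Both passed when every array was shifted to a common median (adjusted p = 0.0371 for Iars2 and 0.0356 for Rars2), so that the mitochondrial count became 4. Lars2, for leucine, had 0.27 (95% interval 0.034 to 0.50) and Sars2, for serine, 0.18 (-0.020 to 0.38).

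The remaining 10 mitochondrial genes had log2 fold changes from -0.28 to 0.038 in MYD88_L265P over EV, and none passed. Fars2, for phenylalanine, was lowest at -0.28 (95% interval -0.55 to -0.012), followed by Aars2, for alanine, at -0.25 (-0.45 to -0.048), Cars2 at -0.22 and Pars2, for proline, at -0.20. Wars2 had -0.16 and Ears2, for glutamate, -0.14, and in these 6 genes both MYD88_L265P arrays lay below both EV arrays. Tars2 (-0.012), Hars2 (-0.0070), Vars2 (0.015) and Mars2 (0.038) were nearest to 0. A median for all features of -0.11 sits among these values.

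**Figure D2:**
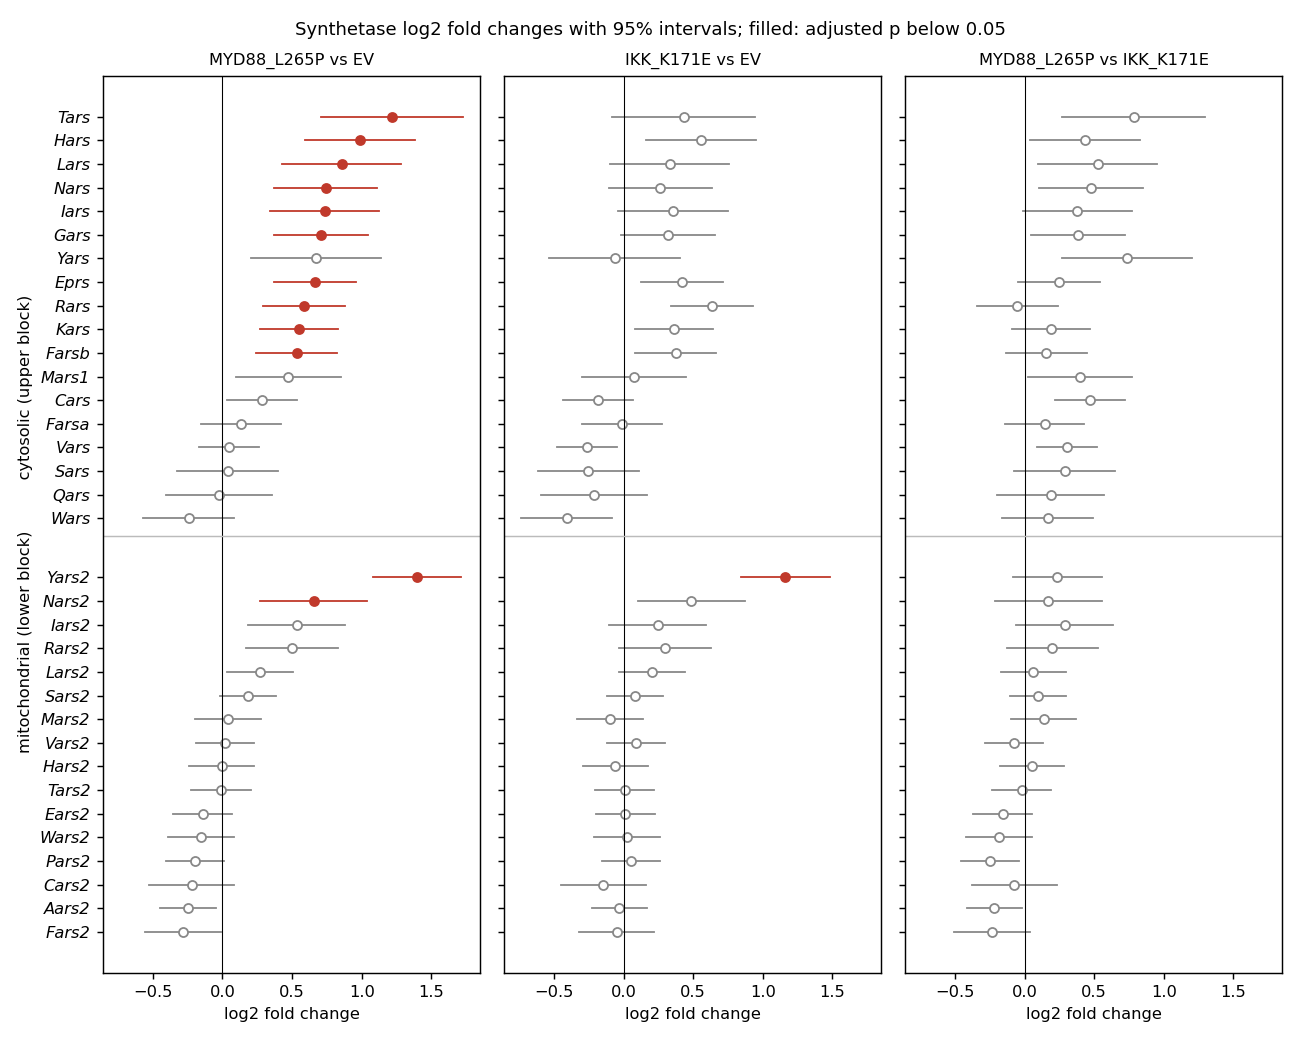
Log2 fold change of each measured synthetase gene with its 95% interval, in MYD88_L265P over EV, IKK_K171E over EV and MYD88_L265P over IKK_K171E; filled points passed the adjusted threshold of 0.05. Cytosolic genes are in the upper block, where 10 of 18 passed in MYD88_L265P over EV, and Yars2 of the lower block passed against EV with both constructs.

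Enzymes for the same amino acid were set side by side in 16 pairs, in which Eprs and Fars2 each occur more than once. The log2 fold change in MYD88_L265P over EV was above that of the mitochondrial partner for the cytosolic gene in 13 pairs. The signal of the cytosolic gene minus that of its partner, taken within each array, was higher on both MYD88_L265P arrays than on both EV arrays in 9 pairs and lower on both in 1. For threonine this difference was 2.26 and 2.27 in MYD88_L265P, against 0.91 and 1.17 in EV. For histidine it was 1.51 and 1.34 in MYD88_L265P, against 0.52 and 0.33 in EV. Only the shift of such a difference between arrays can be read, not its size, since the genes have different probes.

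**Figure D3:**
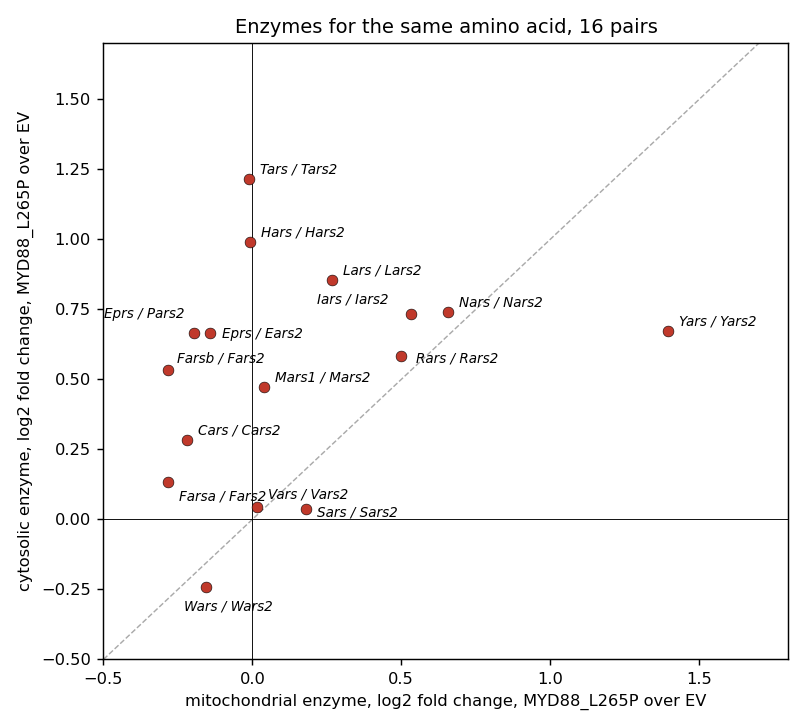
Log2 fold change in MYD88_L265P over EV of the mitochondrial enzyme (x axis) and the cytosolic enzyme (y axis) for the same amino acid, 1 point per pair, with equal change on the dashed line. Tars and Hars lie far above the line at partners near 0, Iars, Nars and Rars lie near it, and Yars and Yars2 lie below it.

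Tyrosine was the 1 pair in which this difference was lower on both MYD88_L265P arrays than on both EV arrays. Yars minus Yars2 was -0.76 and -0.57 in MYD88_L265P and -1.03 and -1.30 in IKK_K171E, against -0.26 and 0.37 in EV. For arginine, asparagine and isoleucine both genes of the pair had similar changes (0.58 and 0.50, 0.74 and 0.66, 0.73 and 0.53 for the cytosolic and the mitochondrial gene). The differences between the genes of a pair were not tested, and with 2 arrays a group an exact permutation test of 1 pair cannot give a two-sided p below 0.333.

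Precision in MYD88_L265P over EV rested on the replicates of both groups. Without MYD88_L265P replicate 1, and likewise without replicate 2, 0 of 18 cytosolic genes passed (1.93% and 0.887% of all features passed), and the cytosolic median was 0.55 and 0.60. Without EV replicate 1, 4 passed (14.1% of all features), and without EV replicate 2, 5 passed (6.13%), with medians of 0.50 and 0.63. Of the mitochondrial genes, 1 passed without EV replicate 2 and without either MYD88_L265P replicate, and Yars2 passed whichever array was left out (adjusted p from 0.00158 to 0.0432 over all 16 alternatives). Nars2 did not pass without EV replicate 2, either MYD88_L265P array or either IKK_K171E array (adjusted p up to 0.183).

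Promoter sequences were read from the RefSeq table of build GRCm38.p6, which matched 25 of the 34 measured members, 11 cytosolic and 14 mitochondrial. Among cytosolic genes without a sequence, Hars, Lars, Nars and Rars rose in MYD88_L265P over EV, and Cars, Vars and Wars did not pass. The letters TGATGNAA, the core of the element that ATF4 binds together with a C/EBP protein, were searched on both strands over the 250 bases before and 50 after each start. They were present in 4 of 11 cytosolic and 0 of 14 mitochondrial promoters, and in 3.97% of 32851 promoters of all genes. The windows of 30 bases around each match are shown, on the strand of the gene, to let the sites be compared, with the matching letters in capitals (5′ to 3′). They lie at chr15:11399655-11399684 (Tars, minus strand), chr6:55037960-55037989 (Gars, plus), chr13:49682126-49682155 (Iars, plus) and chr4:129189895-129189924 (Yars, plus).
Tars: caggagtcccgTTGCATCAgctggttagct
Gars: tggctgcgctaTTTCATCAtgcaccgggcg
Iars: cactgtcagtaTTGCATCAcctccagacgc
Yars: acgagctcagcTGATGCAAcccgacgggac

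The match of Tars begins 15 bases before the annotated start, that of Gars 30 before it, and those of Yars and Iars begin 3 and 7 bases after it. Tars, Gars and Iars rose in MYD88_L265P over EV, and Yars did not pass. Of the genes with a promoter sequence and no match, Eprs, Farsb and Kars rose, and Farsa, Mars1, Qars and Sars did not pass. A match is a string of letters and not a measured site. The stretches of 250 bases before the start are given for Tars (chr15:11399659-11399908, minus strand) and Yars2 (chr16:16302715-16302964, plus strand), the members with the largest change of each set. The match to TGATGNAA is in capitals in Tars, and Yars2 has none.
Tars: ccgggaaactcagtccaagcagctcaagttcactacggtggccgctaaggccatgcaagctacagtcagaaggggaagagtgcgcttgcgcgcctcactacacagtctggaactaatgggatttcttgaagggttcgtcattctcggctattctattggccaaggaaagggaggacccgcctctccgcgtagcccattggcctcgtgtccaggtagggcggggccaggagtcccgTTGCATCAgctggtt
Yars2: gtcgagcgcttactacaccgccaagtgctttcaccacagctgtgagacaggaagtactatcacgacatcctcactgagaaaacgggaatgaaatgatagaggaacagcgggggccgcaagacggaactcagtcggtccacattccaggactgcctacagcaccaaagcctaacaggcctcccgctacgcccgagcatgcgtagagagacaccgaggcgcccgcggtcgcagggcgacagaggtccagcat

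Other letters were searched in the same way. CACGTG, the E-box that MYC and MAX bind, was in 3 cytosolic promoters and 1 mitochondrial promoter (7.15% of all promoters). The kappaB letters GGGACTTTC and GGGAATTTC were in 0 of 25 (0.353% and 0.259% of all promoters). CCAAT was in 6 cytosolic and 6 mitochondrial promoters (37.4% of all), CCACG in 9 and 6 (32.8%), GCGCANGCG in 3 and 4 (6.25%) and CCGGAAGT in 2 and 1 (3.89%). CCACG can overlap CACGTG by its last letters. TGATGNAA was in 3 of the 6 cytosolic promoters of genes that rose in MYD88_L265P over EV and in 1 of the other 5. CACGTG and GCGCANGCG were each in 3 and 0 of these, CCACG in 6 and 3, CCAAT in 3 and 3 and CCGGAAGT in 0 and 2. The differences were not tested.

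IKK_K171E was set against the same EV arrays, which both comparisons share. Yars2 rose, and none of the 18 cytosolic genes passed, with log2 fold changes from -0.41 to 0.64 and 11 of them above 0. Yars2 rose by 1.16 in IKK_K171E over EV (SE 0.14, adjusted p = 0.0209), or 2.24-fold. Of 18 cytosolic genes 0 rose and 0 fell, and of 16 mitochondrial genes 1 rose and 0 fell, where 1.37% of all features passed (0.956% higher and 0.413% lower). Both IKK_K171E arrays lay above both EV arrays for 6 cytosolic and 5 mitochondrial genes (17.6% of all features), and below them for 3 and 0 (28.4%). At an unadjusted p below 0.05, 5 cytosolic genes were higher and 2 lower, and 17.1% of all features passed in either direction. The median log2 fold change was 0.29 over the cytosolic and 0.039 over the mitochondrial genes, beside -0.036 over all features.

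Rars came nearest to the threshold among cytosolic genes, at 0.64 in IKK_K171E over EV on the log2 scale (SE 0.12, adjusted p = 0.0616). Hars had 0.56 (95% interval 0.16 to 0.95), Tars 0.43 (-0.080 to 0.94), Eprs 0.42 (0.12 to 0.71) and Farsb 0.38 (0.086 to 0.67). Wars had -0.41 (-0.73 to -0.080), Vars -0.26 (-0.48 to -0.045), Sars -0.25 and Qars -0.21. Of the mitochondrial genes that did not pass, Nars2 had 0.49 (0.10 to 0.87) and Rars2 0.30.

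The IKK_K171E arrays differed from each other throughout the set. Replicate 1 was above replicate 2 for 18 of 18 cytosolic genes, by a median of 0.37, and for 15 of 16 mitochondrial genes, by a median of 0.14. The MYD88_L265P replicates had a median difference of -0.0068 over the cytosolic genes (replicate 1 minus replicate 2), and the EV replicates -0.11. Of the 10 cytosolic genes that rose with MYD88_L265P, IKK_K171E replicate 1 was above both EV arrays in 10 and replicate 2 in 6. Ikbkb was also higher on replicate 1 (11.35) than on replicate 2 (10.68), and its part in the result was not tested. Without IKK_K171E replicate 1 the cytosolic median was 0.039 and 0 mitochondrial genes passed (0% of all features passed), and without replicate 2 the median was 0.50 and Hars passed (adjusted p = 0.0371). Yars2 also failed to pass without either MYD88_L265P array, which enter this comparison through the shared estimate of spread (0.237% of all features passed).

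**Figure D4:**
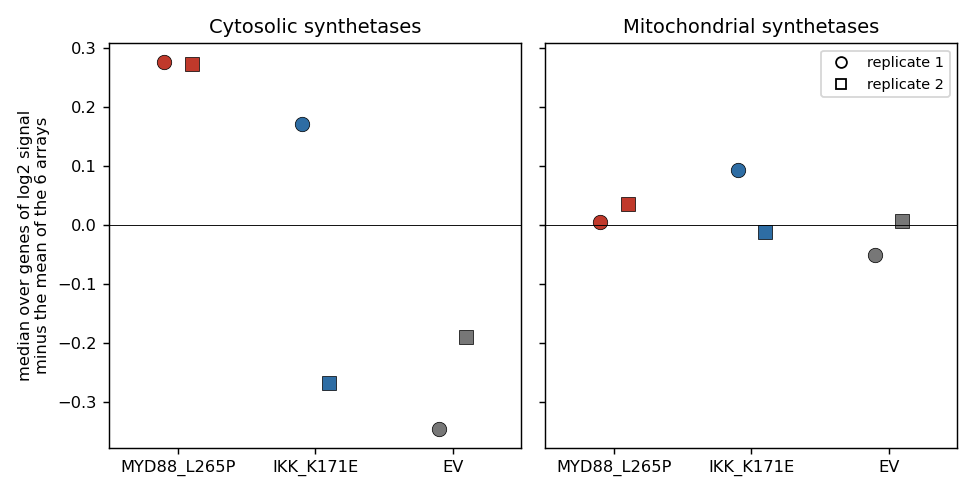
Median over the 18 cytosolic genes (left) and the 16 mitochondrial genes (right) of the log2 signal minus the gene's mean over the 6 arrays, 1 point per array. The cytosolic median is 0.28 and 0.27 in MYD88_L265P, 0.17 and -0.27 in IKK_K171E and -0.35 and -0.19 in EV.

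The constructs were also compared with each other. No synthetase gene passed in MYD88_L265P over IKK_K171E by limma (0 of 18 and 0 of 16), where 1.75% of all features passed (0.873% higher and 0.877% lower). At an unadjusted p below 0.05, 9 cytosolic genes were higher and 0 lower, and 0 mitochondrial genes were higher and 2 lower (19.6% of all features in either direction). Both MYD88_L265P arrays were above both IKK_K171E arrays for 13 of 18 cytosolic and 5 of 16 mitochondrial genes (20.9% of all features), and below them for 0 and 5 (36.1%). The median log2 fold change was 0.34 over the cytosolic and 0.016 over the mitochondrial genes, beside -0.054 over all features.

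Tars had 0.78 in MYD88_L265P over IKK_K171E (95% interval 0.27 to 1.30), Yars 0.74 (0.27 to 1.20) and Cars 0.47 (0.22 to 0.72, adjusted p = 0.0879). Yars read 9.91 and 9.95 in MYD88_L265P, 9.47 and 8.91 in IKK_K171E and 9.06 and 9.45 in EV, with IKK_K171E replicate 1 level with the upper EV array. Rars was the single cytosolic gene with a value below 0, -0.051 (-0.34 to 0.24). Yars2 had 0.24 (-0.083 to 0.55), an interval that holds 0 and differences of up to about 0.55 in log2. The cytosolic median was 0.51 without IKK_K171E replicate 1 and 0.15 without replicate 2.

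Other genes of the transfer RNA and stress pathways were read from lists, some of whose members moved with MYD88_L265P. Of 29 measured genes on the list of Atf4 and ATF4 targets other than synthetases, 15 rose and 0 fell in MYD88_L265P over EV (median 0.46). Of all features 9.32% rose and 7.33% fell (median -0.11). Atf4 itself did not pass (0.32, limma adjusted p = 0.0947). Values were above 0 for 25 of the 29, and below 0 for Ddit4 (-0.32), Ddit3 (-0.18), Trib3 (-0.061) and Slc38a2 (-0.0305). Asns, for asparagine synthetase, rose by 2.34, Shmt2, for the mitochondrial serine hydroxymethyltransferase, by 1.60 and Psat1, for a serine synthesis enzyme, by 1.53. In IKK_K171E over EV, where 0.956% of all features rose, 1 of the 29 rose, the cystine transporter gene Slc7a11 (1.20). The list median there was -0.016. In MYD88_L265P over IKK_K171E 3 rose, Vldlr (1.36), Gpt2, for an alanine transaminase, (0.84) and Chac1, for a glutathione-degrading enzyme, (0.75). Of all features 0.873% rose in that comparison.

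Of 24 measured genes for the processing and export of transfer RNA, 8 rose and 1 fell in MYD88_L265P over EV. Rpp40 and Rpp30, for subunits of ribonuclease P, rose by 1.51 and 1.07, Xpot, for the transfer RNA export factor, by 0.98, and Rtcb, for the ligase of transfer RNA splicing, fell by 0.47. Xpot read 9.98 and 10.18 in MYD88_L265P, 9.44 and 8.84 in IKK_K171E and 9.04 and 9.15 in EV. Of 45 transfer RNA modification genes, 11 rose and 0 fell, among them Pus7, for a pseudouridine synthase, (1.21), Dus4l, for a dihydrouridine synthase, (1.02) and Mettl1, for a guanosine methyltransferase, (1.00). Of 22 genes for RNA polymerase III and its factors, 6 rose and 0 fell, with Gtf3c6 at 0.81, Polr3g at 0.73 and Polr3e at 0.70. Of all features 9.32% rose and 7.33% fell. In IKK_K171E over EV 0 genes of these 3 lists passed, where 1.37% of all features passed. Values there were above 0 for 20 of 24, 31 of 45 and 14 of 22 genes. The list medians were 0.19, 0.11 and 0.12, beside -0.0365 over all features. Rpp40 had 1.11 (limma adjusted p = 0.0556), Rpp30 0.89 and Pus7 0.85 in IKK_K171E over EV, against 0.047 for Xpot.

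Translation factors were read in the same way, beside 9.32% of all features higher in MYD88_L265P over EV. Of 6 measured cytosolic elongation factor genes, Eif5a alone rose in MYD88_L265P over EV (0.77, list median -0.090), and of 9 mitochondrial translation factor genes Gfm1, for a mitochondrial elongation factor, alone rose (0.90, list median 0.12). Qrsl1, Gatb and Gatc, whose products make glutamine transfer RNA in mitochondria by amidation, and Mtfmt, which formylates the initiator, had log2 fold changes from -0.13 to 0.098, and 0 of these 4 passed. Of 6 genes for eIF2 alpha kinases and their phosphatase subunits, 0 passed in any comparison. Of all features 16.6% passed in MYD88_L265P over EV, 1.37% in IKK_K171E over EV and 1.75% in MYD88_L265P over IKK_K171E.

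Of 8 measured genes for synthetase-like, editing and recycling proteins, Tarsl2 alone rose in MYD88_L265P over EV (list median 0.27), where 9.32% of all features rose.

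Some markers of other cell states moved with the groups. Of 6 plasma cell genes, 3 rose in MYD88_L265P over EV (9.32% of all features), namely Prdm1 (2.47), Jchain (2.22) and Xbp1 (1.26). Irf4 (0.83, adjusted p = 0.0569), Sdc1 and Tnfrsf17 did not pass. The summed linear signal of the 6 genes was 8673 and 6630 in MYD88_L265P, 3665 and 2025 in IKK_K171E and 2417 and 2977 in EV. The sum of 8 monocyte and macrophage genes was 8620 and 7299 in MYD88_L265P, 15928 and 14130 in IKK_K171E and 9686 and 10496 in EV. Of these 8 genes, 0 rose and Adgre1 fell (-1.78) in MYD88_L265P over EV, where 7.33% of all features fell. In IKK_K171E over EV Csf1r rose (1.22), Adgre1 fell (-1.17) and Lyz2 did not pass (1.41, adjusted p = 0.0501). In that comparison 0.956% of all features rose and 0.413% fell. Lyz2 read 12.96 and 12.89 in IKK_K171E and 11.09 and 11.95 in EV, and the higher sums in IKK_K171E mainly follow it. The sum of 6 dendritic cell genes was 1904 and 1982 in MYD88_L265P, 3245 and 3126 in IKK_K171E and 2301 and 2285 in EV. The higher sums in IKK_K171E mainly follow Flt3, which read 10.96 and 10.90 there and 10.18 and 10.19 in EV. In MYD88_L265P over EV Ccr9 rose (1.49) and Flt3 (-0.88) and Zbtb46 (-0.56) fell, and in IKK_K171E over EV Flt3 (0.75) and Itgax (0.68) rose. Of 7 B cell genes 4 fell in MYD88_L265P over EV (7.33% of all features), namely Fcer2a (-1.81), Cr2 (-1.31), Cd22 (-0.78) and Cd79b (-0.67). Cd22 alone of the 7 fell in IKK_K171E over EV (-0.64, limma adjusted p = 0.0416), and Fcer2a there did not pass (1.08). The B cell sums were 18383 and 18634 in MYD88_L265P, 24423 and 25408 in IKK_K171E and 26962 and 29022 in EV. Of 7 genes listed for T cells 4 fell as well, namely Cd2 (-0.69), Cd3g (-0.67), Cd3e (-0.47) and Cd4 (-0.37). The sums of the 7 were 4049 and 3881 in MYD88_L265P, 4589 and 5244 in IKK_K171E and 5820 and 6167 in EV. Cd2 carried most of these sums (12.01 and 12.12 in log2 in EV, with Cd3e next at 8.71 and 8.86). The sums therefore mainly follow Cd2, whose level was near that of the B cell gene Cd79b (12.47 and 12.55 in EV). They are not read as a measure of T cells. In IKK_K171E over EV 0 of the 7 genes listed for T cells passed (1.37% of all features). There 6 had log2 fold changes above 0 (list median 0.20), against -0.57 for Cd2. Klrd1 of the 5 NK cell genes (-1.16) and Ly6g of the 6 neutrophil genes (-0.49) fell in MYD88_L265P over EV, where 7.33% of all features fell. The other genes of these lists and the 2 measured erythroid genes did not pass. In IKK_K171E over EV 0 genes of these lists passed, where 1.37% of all features passed. The part of RNA from other cell types or states in the synthetase values was not tested. In sorted bulk samples, fewer cells of a type and less RNA per cell cannot be told apart.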

How the data were processed

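Each of 6 samples had 1 Affymetrix mouse ST 1.0 array. The authors deposited normalized log2 expression values by array feature, and the submitters' processing notes name oligo and limma without versions. Background correction, normalization method and genome build are not given in the sources used here. The table holds 24743 features and no detection p-values, so that low signal was not separated from background, and the number of arrays limits the precision.

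Features with exactly 1 gene symbol in the platform annotation were tested (21542, and 1522 with several symbols and 1679 with none were left out). Group means were fitted to all 6 arrays with limma 3.58.1 in R 4.3.3 (3 residual and 4.17 prior degrees of freedom, two-sided, Benjamini-Hochberg over all features tested, called at adjusted p below 0.05). P-values rest on the spread between replicates, shared by the 3 groups. Intervals of 95% use the moderated SE. The fit was tested on simulated data with independent noise for each feature, a setting without shifts shared across genes. Replicates are numbered as in the descriptions, although the titles number the same arrays differently, and no 2 arrays held identical values.

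All members are named, and those with the largest changes are given on every array. Of each pathway list the called genes with the largest changes are named, up to 3, with those called in the other comparisons, and list members without a single-symbol feature were left out. The members and lists were chosen with earlier results of these data known, and the promoter letters, amino acid pairs and enzyme classes after the values were seen. The marker and pathway lists were represented by the brightest feature of each gene. Alternatives changed normalization, centring, the variance model, array weights, the filter on dim features, which features and arrays entered, and the threshold, took the replicate number as a block, and left out each array.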

Additional observations from a re-analysis of the deposited data

Results flagged for a closer look

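Features that carry a member's symbol but were not used for its values were read as well. The feature shared by Aars, for the alanine enzyme, and Exosc6, for an exosome subunit, read 9.93 and 10.01 in MYD88_L265P, 9.70 and 9.25 in IKK_K171E and 9.31 and 9.56 in EV. Its log2 fold change in MYD88_L265P over EV was 0.53 (SE 0.16, limma adjusted p = 0.0708 over all deposited features), which did not pass, and its signal cannot be assigned to either gene. The second, dimmer feature of Iars read 11.62 and 11.71 in MYD88_L265P, 11.34 and 10.80 in IKK_K171E and 10.84 and 11.06 in EV, with a log2 fold change of 0.71 (SE 0.18, adjusted p = 0.0462 over all deposited features), beside 0.73 for the brighter feature.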

How the results depend on the processing

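Of 1632 values of single members under 16 alternatives, 0 reversed a call, 44 lost a call, 27 gained one and 95 without a call moved by more than the spread between replicates. A threshold of 1.5-fold ended the calls of Farsb, Kars and Rars in MYD88_L265P over EV, which left 7 cytosolic genes. With only the 4 arrays compared, Yars and Mars1 passed as well (limma adjusted p = 0.0344 and 0.0211). Yars also passed with array weights (adjusted p = 0.0357). In MYD88_L265P over EV, 4 mitochondrial genes passed with the replicate number as a block, with a common median, with the dimmest 25% of features left out, with the trend and robust variance model and with array weights, against 2 in the reported fit; Iars2 and Rars2 were the genes gained. The mitochondrial median under a common median was 0.088 in MYD88_L265P over EV and 0.087 in MYD88_L265P over IKK_K171E. In IKK_K171E over EV, Rars passed with the trend and robust variance model (1 cytosolic gene), and 0 mitochondrial genes passed with only the 4 arrays compared. With each array left out in turn, counts in MYD88_L265P over EV ran from 0 to 12 cytosolic and from 1 to 3 mitochondrial genes, and in IKK_K171E over EV from 0 to 1 in both sets. The medians in MYD88_L265P over EV ran from 0.50 to 0.63 (cytosolic) and -0.014 to 0.031 (mitochondrial), in IKK_K171E over EV from 0.039 to 0.50 and -0.0027 to 0.086, and in MYD88_L265P over IKK_K171E from 0.15 to 0.51 and -0.048 to 0.076. The cause of these shifts was not tested. The replicate numbers of the descriptions differ from those of the titles and are not stated to mark a shared batch: replicate 1 minus replicate 2 correlated across features between groups at 0.10 to 0.21, and the block left the cytosolic counts at 10, 0 and 0. Over all features, the share that passed ran from 0.887% to 23.8% in MYD88_L265P over EV, from 0% to 2.91% (with the block) in IKK_K171E over EV and from 0.065% to 2.75% in MYD88_L265P over IKK_K171E, where a common median gave 257 higher and 131 lower, against 188 higher and 189 lower as deposited.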
